A study of Homo sapiens with 8 samples.

Results

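The genes described here encode the serine/arginine-rich (SR) splicing factors, the TRA2 proteins and the heterogeneous nuclear ribonucleoproteins (hnRNPs). They were chosen by gene symbol alone: SRSF or HNRNP followed by a number or letters, or TRA2A and TRA2B, without pseudogenes. The rule took 37 of the 57756 listed genes, 15 of them SR or TRA2 and 22 of them hnRNP genes, and no measured value entered it. SRSF8 is listed under 2 identifiers at 1 locus, so the 37 entries carry 36 symbols.

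RNA associated with RPS6, a component of the small ribosomal subunit, was pulled down with an RPS6 antibody (RNA immunoprecipitation, RIP) and sequenced beside the input, an aliquot of the same lysate. Hep3B (hepatocellular carcinoma), HCT116 (colorectal cancer), DU145 (prostate cancer) and SW1990 (pancreatic cancer) cells each gave 1 input and 1 RIP library, 8 libraries in all, with no treatment or genotype named. The liver line is titled 3B and is called Hep3B in the study, but the cell line field of its labels reads Huh7. It is called Hep3B here, and the marker genes used could not tell both liver lines apart. The inputs held 35796159 to 54209614 fragments and the RIP libraries 34630349 to 42610124. All 7 hepatocyte markers reached 1 FPKM (fragments per kilobase of transcript, scaled to library depth) in the Hep3B input and at most 1 did in any other. The other lists did not single out their lines. Of 5 pancreatic duct markers, 4 reached that level in SW1990 but also 4 in HCT116 and 3 in DU145. Of 6 colon markers, 1 did in HCT116 and 4 in SW1990, and of 4 prostate markers, 1 did in DU145 and 2 each in HCT116 and SW1990. At most 1 of 6 listed markers of blood, endothelium and fibroblasts reached that level in any input.

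SR proteins carry RNA recognition motifs and a tail rich in arginine and serine, bind enhancer sequences in exons and help the spliceosome choose splice sites. hnRNPs coat nascent transcripts, often oppose SR proteins at the same exons, and include shuttling proteins that follow mRNA to the cytoplasm. Many genes of both families adjust their own output by alternative splicing of so-called poison exons, which yields transcripts that are kept in the nucleus or degraded once a ribosome meets their early stop codon. A RIP-to-input comparison reads the share of each RNA in the pull-down, relative to all other RNAs of the library. The 8 libraries include no control pull-down without the RPS6 antibody. RNA that came down without RPS6 can therefore not be told apart from RNA bound to it.

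The first bases of these mRNAs are shown because mRNAs of the translation machinery typically begin with a pyrimidine tract, a feature that links them to mTOR signalling upstream of RPS6. RefSeq (GRCh38.p14) gave the start of 33 of the 36 symbols, with 47 starts between them. HNRNPA1, SRSF2 and TRA2A had no entry under these symbols, so their starts were not examined. Among the 33, only HNRNPA0 and SRSF9 began with C in a run of at least 5 C or T, as did 4.07% of all 35116 starts. A second feature, chosen after the sequences were seen, was the run GCCATTT on either strand in the first 30 bases. It was held by 6 of the 47 starts, from 6 genes, and by 0.609% of all starts. Because the run was picked from these starts, its higher share among them follows from the choice. The 8 starts are printed 5′ to 3′ on the gene's strand, with the pyrimidine run or the GCCATTT run (on HNRNPM its reverse complement, AAATGGC) in capitals.
HNRNPA0, chr5:137754334-137754363, minus strand: CTCTTTgtgtggtgcccagataggggagcg
SRSF9, chr12:120469719-120469748, minus strand: CCCTTCgcttccgctccgcgttcccacaat
HNRNPC, chr14:21269413-21269442, minus strand: agaggagactcggggGCCATTTtgtgaaga
HNRNPD, chr4:82373962-82373991, minus strand: gtcgGCCATTTtaggtggtccgcggcggcg
HNRNPM, chr19:8444975-8445004, plus strand: acacaaagcccagacgcggagaAAATGGCg
HNRNPR, chr1:23344255-23344284, minus strand: GCCATTTctagtcgttttcaaagcgcctcg
SRSF1, chr17:58007217-58007246, minus strand: GCCATTTtggaggggccgcgggagacgtgg
SRSF3, chr6:36594362-36594391, plus strand: ccGCCATTTcgtggacgccgggtgagtgag

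Most SR, TRA2 and hnRNP mRNAs made up a smaller share of the RPS6 RIP than of the input. In a model with a block for each cell line, 36 of the 37 entries had enough counts to be tested by edgeR's quasi-likelihood test, and 22 of them were lower in RIP and 4 higher at a Benjamini-Hochberg adjusted p under 0.05. Among all 19921 genes tested, 24.9% were lower and 26.5% higher. Among protein-coding symbols the shares were 26.1% lower and 32.3% higher, and among those with a mean of at least 1000 counts, where most of these genes lie, 27.3% lower and 45.8% higher. The median log2 fold change of RIP over input was -0.85 over the 36, against -0.05 over all genes, 0.13 over protein-coding symbols and 0.39 over the deeply counted ones. Together the 37 entries took 0.857% to 1.06% of the fragments of an input and 0.431% to 0.614% of those of a RIP library. Bulk libraries cannot tell apart fewer pulled-down molecules of an RNA from more of the other RNAs.

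**Figure D1:**
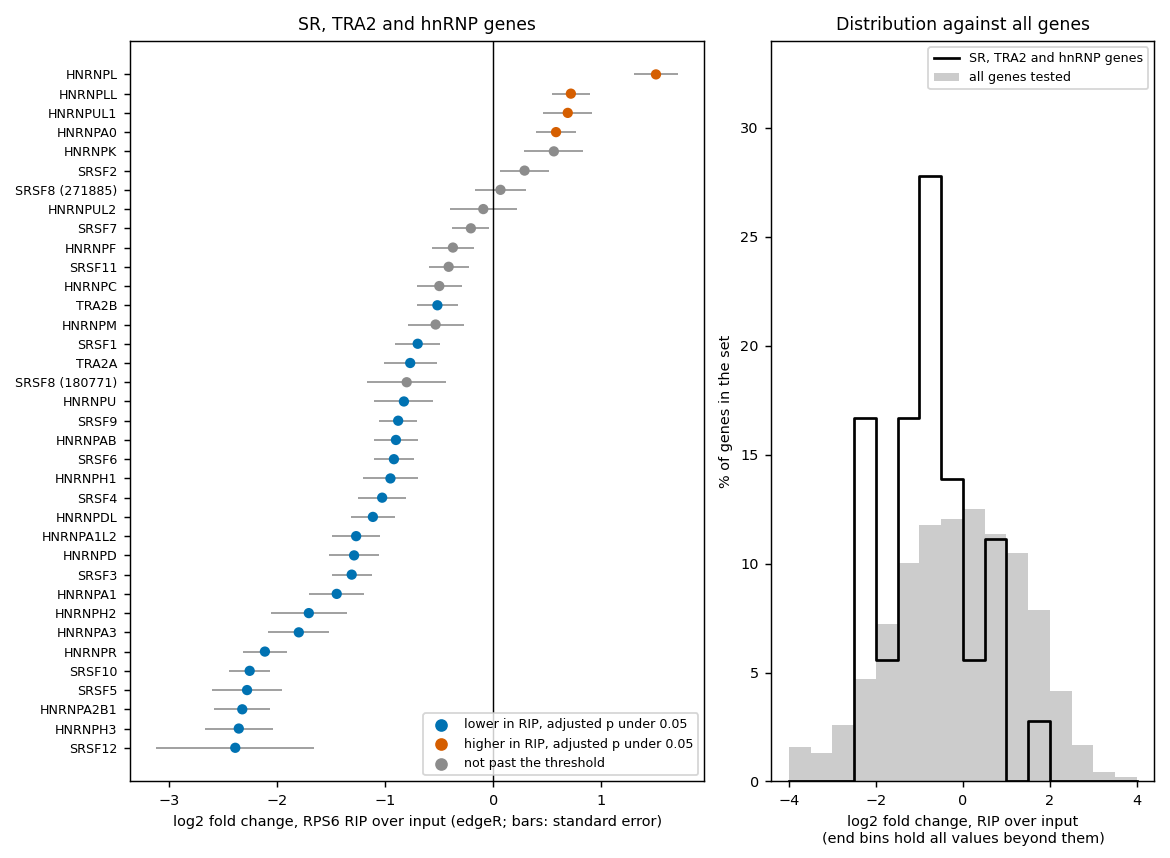
Left, log2 fold change of RPS6 RIP over input for the 36 tested SR, TRA2 and hnRNP genes (x axis, edgeR, blocked by cell line, 4 pairs of libraries; bars are standard errors), coloured by call, with the 2 SRSF8 identifiers by their last digits. Right, the share of genes (y axis, %) in each interval of log2 fold change for these genes (black line) and all 19921 genes tested (grey); the 36 genes lie mostly left of 0, with HNRNPL alone above 1.

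Both families had medians below 0, and the 4 genes that rose were all hnRNPs. The 15 SR and TRA2 entries had a median of -0.80, with 10 lower, 0 higher and 5 not past the threshold. No SR or TRA2 entry was higher at an unadjusted p under 0.05 either, with edgeR, DESeq2 or limma. The 21 hnRNP genes tested had a median of -0.90, with 12 lower, 4 higher and 5 not past the threshold. The difference between the families was not tested. The cell lines are the only replicates. Each p weighs the change from input to RIP against a variation between the lines. edgeR estimates that variation partly from all genes and not from a gene's own 4 pairs alone, so the SE need not follow that gene's own spread.

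Values below are in FPKM and always in the order Hep3B, HCT116, DU145 and SW1990. The authors normalized Hep3B with HCT116 and DU145 with SW1990 in separate tables, so levels are compared across these pairs with that limit. Within a line, a ratio is log2 of (RIP FPKM + 1) over (input FPKM + 1), with 1 library on each side and no test. Only 16 of the 36 tested entries are alone in their locus. The others share theirs with further listed genes, also where this is not repeated below, so their fragments may be divided between entries.

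SRSF1 and SRSF9 are close relatives that both bind purine-rich exonic enhancers, and SRSF1 is the founding member of the family. SRSF1 (ENSG00000136450) measured 263, 157, 224 and 232 FPKM in the inputs and 189, 116, 114 and 240.3 in the RIP libraries. Its RIP level lay below the input in 3 lines and just above it in SW1990, and the groups overlapped. SRSF1 fell by 0.70 on the log2 scale (SE 0.21, adjusted p = 0.018), a call that was lost without HCT116, without DU145 and with limma on FPKM. SRSF9 (ENSG00000111786, chr12:120899470-120907596 on hg19) measured 127, 226, 238 and 261 FPKM in the inputs and 66.1, 156, 120.5 and 170.2 in the RIP libraries. SRSF9 was lower in RIP in all 4 lines and had a log2 fold change of -0.88 ± 0.18 (SE), with an adjusted p of 0.0018.

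SRSF2 and SRSF8 form a pair in which SRSF8 arose as a copy of SRSF2. SRSF2 (ENSG00000161547), which binds both C-rich and G-rich enhancers, measured 170.1, 88.9, 110.2 and 209.6 FPKM in the inputs and 131, 194, 118 and 194 in the RIP libraries. RIP exceeded input in HCT116 and slightly in DU145, and lay below it in Hep3B and slightly in SW1990. Its log2 fold change was 0.29 ± 0.23 (adjusted p = 0.31), the highest estimate among SR genes and not past the threshold. SRSF2 shares its locus with MFSD11 and METTL23, so its fragments were partly assigned by the authors' software. The SRSF8 entries had log2 fold changes of -0.80 ± 0.36 (ENSG00000180771) and 0.07 ± 0.24 (ENSG00000271885), with adjusted p of 0.09 and 0.83. The first of them was past the threshold as lower without Hep3B (-1.33, adjusted p = 0.0054), with no minimum on counts and with scaling on protein-coding genes. Both entries cover the same locus (chr11:94800055-94804388 on hg19), so the split of fragments between them is uncertain.

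SRSF3 and SRSF7 are small SR proteins that act as adaptors of the mRNA export receptor NXF1. SRSF3 (ENSG00000112081, chr6:36562144-36573377 on hg19) measured 185, 101, 71.6 and 156 FPKM in the inputs and 94.7, 42.3, 45.5 and 63.3 in the RIP libraries. The RIP value was well below the input in each line, although the highest RIP value (Hep3B) exceeded the lowest input (DU145). SRSF3 was 2.48-fold lower in RIP (log2 fold change -1.31 ± 0.18, adjusted p = 1.9e-04). SRSF7 (ENSG00000115875) measured 108, 64.4, 55.1 and 70.6 FPKM in the inputs and 105, 71.5, 56.6 and 64.2 in the RIP libraries. SRSF7 had ratios near 0 in every line, at -0.04, 0.15, 0.04 and -0.13, and a log2 fold change of -0.21 ± 0.17 (adjusted p = 0.34). The difference between SRSF3 and SRSF7 was not tested.

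SRSF4, SRSF5 and SRSF6 resemble each other closely and carry a canonical and a degenerate RNA recognition motif. SRSF5 (ENSG00000100650, chr14:70193616-70238722 on hg19) measured 88.9, 70.1, 111 and 145 FPKM in the inputs and 22.6, 51.3, 13.6 and 27.2 in the RIP libraries. All 4 RIP values lay below all 4 inputs, but the drop was small in HCT116 and large in DU145. SRSF5 was 4.85-fold lower (log2 fold change -2.28 ± 0.33, adjusted p = 2.2e-04). SRSF4 (ENSG00000116350) measured 29.2, 20.5, 24.5 and 59.7 FPKM in the inputs and 15.2, 19.6, 12.9 and 19.8 in the RIP libraries, so that no RIP value reached any input. SRSF6 (ENSG00000124193) measured 177, 131, 87.9 and 108 FPKM in the inputs and 106, 104, 54.1 and 66.4 in the RIP libraries, and its groups overlapped. The log2 fold changes were -1.03 ± 0.22 for SRSF4 and -0.92 ± 0.19 for SRSF6, with adjusted p of 0.0031 and 0.002.

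SRSF10 and SRSF12 are atypical SR proteins, and SRSF10 turns into a splicing repressor when it is dephosphorylated. SRSF10 (ENSG00000188529, chr1:24291293-24307417 on hg19) measured 149.8, 72.7, 69.3 and 131 FPKM in the inputs and 52.97, 24.1, 22.01 and 27.7 in the RIP libraries. The RIP values all lay below the inputs, and the ratios of -1.48, -1.55, -1.61 and -2.20 were among the most even of the strongly lowered genes. SRSF10 was 4.77-fold lower in RIP (log2 fold change -2.26 ± 0.19, adjusted p = 1.4e-05). SRSF12 (ENSG00000154548) was present at 6.25 FPKM in the Hep3B input and 3.59 in the DU145 input, was held by 3 fragments in the HCT116 input, and was listed at 0 in both SW1990 libraries. Its RIP values were 3.39 FPKM in Hep3B and 0.263 in DU145. The estimate for SRSF12 (-2.39 ± 0.73, adjusted p = 0.022) rests on these 2 lines. It was -3.81 without Hep3B and -1.28 without DU145, and was no longer past the threshold without DU145 or with limma on FPKM.

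SRSF11, a large SR protein of nuclear speckles, measured 94.8, 54.6, 52.3 and 85.6 FPKM in the inputs and 92.5, 58.9, 60.9 and 79.3 in the RIP libraries. Its FPKM was about level while its counts gave a log2 fold change of -0.41 ± 0.19 (adjusted p = 0.089), which passed with a minimum of 50 counts and with scaling on protein-coding genes. TRA2A and TRA2B, the human homologues of the Drosophila sex-determination factor transformer-2, bind GAA-rich enhancers. TRA2A (ENSG00000164548) measured 159, 73.7, 62.5 and 87.8 FPKM in the inputs and 57.2, 119, 31.5 and 56.2 in the RIP libraries, so it was higher in RIP in HCT116 and lower in the other lines. TRA2B (ENSG00000136527) measured 234, 165, 228 and 307 FPKM in the inputs and 239, 154, 163 and 208 in the RIP libraries. Both had calls of lower, with log2 fold changes of -0.77 ± 0.24 and -0.52 ± 0.19 and adjusted p of 0.023 and 0.042. TRA2A lost its call without Hep3B, without DU145, without SW1990 and with limma, and TRA2B without HCT116, without DU145, without SW1990 and with limma.

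**Figure D2:**
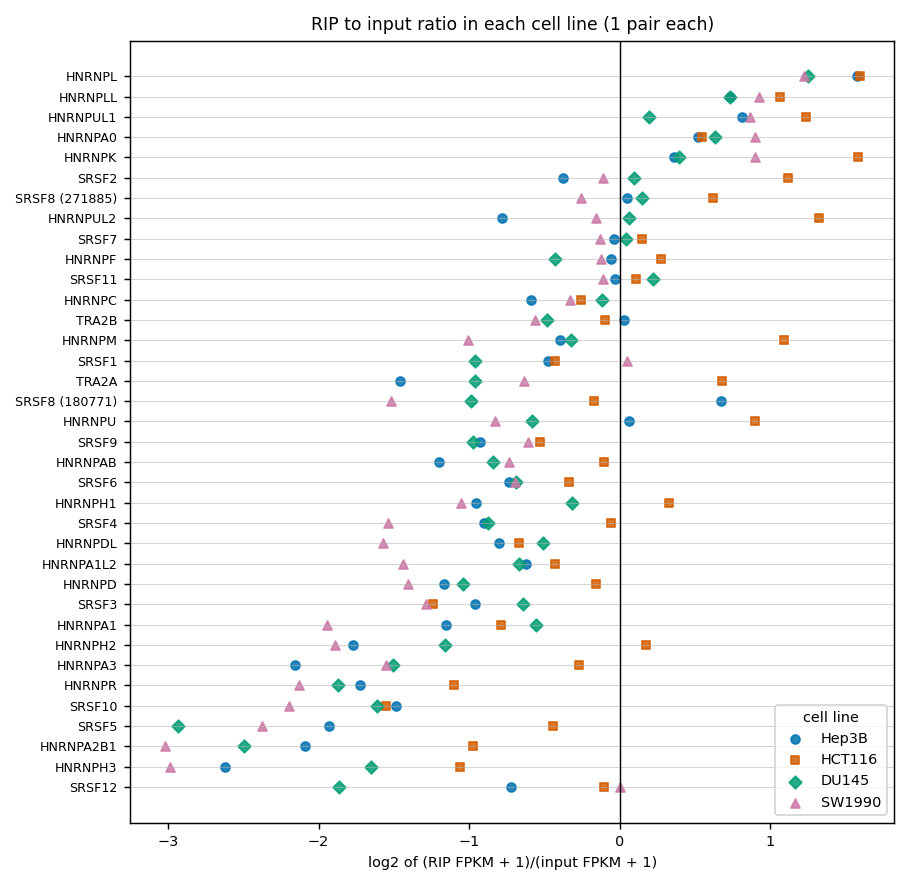
The log2 ratio of RIP to input on the FPKM + 1 scale (x axis) in each of the 4 cell lines (symbols, 1 pair of libraries each) for the 36 tested genes, in the order of their edgeR log2 fold change. HCT116 (squares) is the rightmost symbol for 25 of the 36 genes.

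The A/B hnRNPs, the most abundant of the family, package nascent RNA and shuttle through the cytoplasm. HNRNPA2B1 (ENSG00000122566), a reader of trafficking elements in mRNA, had the highest mean input level of all 37 entries. It measured 811, 326, 700.2 and 729 FPKM in the inputs and 189, 166, 123 and 89.01 in the RIP libraries, with no RIP value as high as the lowest input. HNRNPA2B1 was 5.01-fold lower in RIP (log2 fold change -2.32 ± 0.26, adjusted p = 4.4e-05), with the weakest ratio in HCT116 and the strongest in SW1990. It shares its locus with CBX3.

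HNRNPA1 (ENSG00000135486), the classical antagonist of SRSF1 at exons, measured 433, 701, 317 and 809 FPKM in the inputs and 194, 404, 215 and 209.7 in the RIP libraries. RIP was below input within each line, most of all in SW1990, while the HCT116 RIP value exceeded the DU145 input. HNRNPA1 was 2.73-fold lower in RIP (log2 fold change -1.45 ± 0.25, adjusted p = 8.0e-04). Its 75 listed pseudogenes held 5.62% to 10.3% of the fragments of HNRNPA1 and its pseudogenes together. Its locus holds 11 listed genes, HNRNPA1 included, so its level may be uncertain by more than that share. HNRNPA1L2, a retrotransposed copy of HNRNPA1, measured 11.2, 23.4, 9.55 and 18.04 FPKM in the inputs and 6.94, 17.1, 5.64 and 6.004 in the RIP libraries, and fell by 1.27 on the log2 scale (SE 0.22, adjusted p = 7.6e-04). Near-identical sequence means that fragments of HNRNPA1 and HNRNPA1L2 could not be told apart with certainty.

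HNRNPA3 (ENSG00000170144), which is close to HNRNPA1 in sequence, measured 195, 146, 91.4 and 179 FPKM in the inputs and 42.9, 121, 31.5 and 60.5 in the RIP libraries. The HCT116 pair differed least and Hep3B most, with log2 ratios of -2.15, -0.27, -1.51 and -1.55. HNRNPA3 had a log2 fold change of -1.80 ± 0.28 (adjusted p = 4.0e-04), and its 16 pseudogenes held 1.56% to 3.68% of the family's fragments. The HNRNPA3 locus holds 8 listed genes. HNRNPA0 (ENSG00000177733, chr5:137087074-137090039 on hg19), an intronless gene whose protein binds AU-rich elements, went the other way. HNRNPA0 measured 90.1, 93.03, 63.8 and 105 FPKM in the inputs and 129, 136, 99.6 and 196 in the RIP libraries, higher in RIP in each line. It was 1.496-fold higher (log2 fold change 0.58 ± 0.18, adjusted p = 0.022), a call lost without DU145, without SW1990, with no minimum on counts and with scaling on protein-coding genes.

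HNRNPD (AUF1), HNRNPDL and HNRNPAB are relatives that bind AU-rich elements and govern mRNA decay as well as splicing. HNRNPD (ENSG00000138668) measured 134, 160.037, 114 and 139 FPKM in the inputs and 59.2, 143, 54.7 and 51.8 in the RIP libraries. The HCT116 RIP library, at the level of the inputs, stood apart from the other 3 RIP libraries. HNRNPDL (ENSG00000152795) measured 114, 51.5, 93.2 and 219 FPKM in the inputs and 65.02, 32.02, 65.2 and 73.1 in the RIP libraries. HNRNPAB (ENSG00000197451) measured 80.8, 106, 148 and 286 FPKM in the inputs and 34.6, 98.8, 82.6 and 171 in the RIP libraries. All 3 genes were lower in RIP in all 4 lines, with log2 fold changes of -1.29 ± 0.23, -1.11 ± 0.20 and -0.90 ± 0.21 and adjusted p of 0.001, 0.0011 and 0.0042.

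HNRNPC, whose tetramer measures the length of nascent RNA and binds uridine tracts, was abundant and only weakly shifted. HNRNPC (ENSG00000092199, chr14:21677294-21737653 on hg19) measured 558, 567, 386 and 503 FPKM in the inputs and 371, 473, 356 and 400.011 in the RIP libraries. RIP was below input in all 4 lines, but the groups overlapped and the log2 fold change of -0.50 ± 0.21 was not past the threshold (adjusted p = 0.07). HNRNPC did pass with DESeq2 (adjusted p = 0.0089), with a minimum of 50 counts (0.040) and with scaling on protein-coding genes (0.018). HNRNPCL1, an intronless copy of HNRNPC and the only entry under the minimum of 10 counts, had a mean of 5.82 counts and at most 0.262 FPKM in any library.

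HNRNPF and the HNRNPH genes bind G-rich runs near splice sites and differed within the family. HNRNPH3 (ENSG00000096746) measured 114, 55.03, 87.99 and 211 FPKM in the inputs and 17.6, 25.9, 27.4 and 25.7 in the RIP libraries, with all RIP values below all inputs. HNRNPH3 was 5.12-fold lower in RIP (log2 fold change -2.36 ± 0.32, adjusted p = 1.4e-04). HNRNPH1 (ENSG00000169045), the most abundant of them, measured 567, 273, 304 and 429 FPKM in the inputs and 292, 343, 244 and 206 in the RIP libraries. In HCT116 its RIP FPKM exceeded the input, and in the other lines it lay below. On the estimated counts HNRNPH1 was slightly lower in HCT116 as well (log2 ratio -0.15). The log2 fold change was -0.95 ± 0.26 (adjusted p = 0.0099), and it was not past the threshold with limma on FPKM.

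HNRNPH2 (ENSG00000126945), on the X chromosome, measured 23.1, 13.5, 15.3 and 21.7 FPKM in the inputs and 6.05, 15.3, 6.28 and 5.12 in the RIP libraries. In FPKM, HCT116 alone was again not lowered, while on the estimated counts HNRNPH2 was lower there too (log2 ratio -0.24). The log2 fold change of HNRNPH2 was -1.71 ± 0.35 (adjusted p = 0.0022). HNRNPH2 is listed beside the read-through gene RPL36A-HNRNPH2, so its fragments are shared between entries. HNRNPF (ENSG00000169813) measured 129, 145, 130.5 and 149.5 FPKM in the inputs and 123, 176, 96.5 and 137 in the RIP libraries, and its log2 fold change of -0.37 ± 0.20 was not past the threshold (adjusted p = 0.14) except with scaling on protein-coding genes (0.032).

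HNRNPL and its paralog HNRNPLL, which bind CA-rich RNA and repress variable exons of CD45, were the 2 genes whose RIP values all lay above all inputs. HNRNPL (ENSG00000104824) measured 145, 249, 154 and 156 FPKM in the inputs and 434, 754, 368 and 365 in the RIP libraries. It was 2.84-fold higher in RIP (log2 fold change 1.51 ± 0.21, adjusted p = 1.7e-04), the largest rise among these genes, with ratios of 1.57, 1.59, 1.25 and 1.23. HNRNPLL (ENSG00000143889) measured 27.1, 25.6, 30.4 and 38.5 FPKM in the inputs and 45.6, 54.5, 50.99 and 73.97 in the RIP libraries. HNRNPLL was 1.65-fold higher (log2 fold change 0.72 ± 0.18, adjusted p = 0.0062). Of all genes tested, 10.9% had every RIP value above every input and 8.17% every RIP value below, against 2 and 6 of the 36 here. HNRNPL shares its locus with ECH1.

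HNRNPK, a KH-domain protein that binds C-rich RNA and DNA, measured 294, 187, 218 and 157 FPKM in the inputs and 379, 562, 286 and 292 in the RIP libraries. RIP was above input in all 4 lines, most in HCT116, but the log2 fold change of 0.56 ± 0.27 was not past the threshold (adjusted p = 0.11). With limma on log2(FPKM + 1) it was 0.81 and passed (adjusted p = 0.037). HNRNPM, a splicing factor active in the epithelial-mesenchymal transition, measured 100.005, 90.5, 102 and 90.8 FPKM in the inputs and 75.8, 194, 81.3 and 44.6 in the RIP libraries. RIP was above input in HCT116 and below it in the other lines, most in SW1990, with a log2 fold change of -0.53 ± 0.26 (adjusted p = 0.11). HNRNPM was past the threshold as lower without HCT116 (-0.86, adjusted p = 0.0084), with no minimum on counts and with scaling on protein-coding genes. HNRNPR, a relative of SYNCRIP that binds mRNA in axons, measured 67.3, 89.6, 110.2 and 122 FPKM in the inputs and 19.7, 41.1, 29.4 and 26.99 in the RIP libraries, with no overlap. HNRNPR (ENSG00000125944, chr1:23630263-23670829 on hg19) was 4.33-fold lower in RIP (log2 fold change -2.11 ± 0.20, adjusted p = 2.1e-05).

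**Figure D3:**
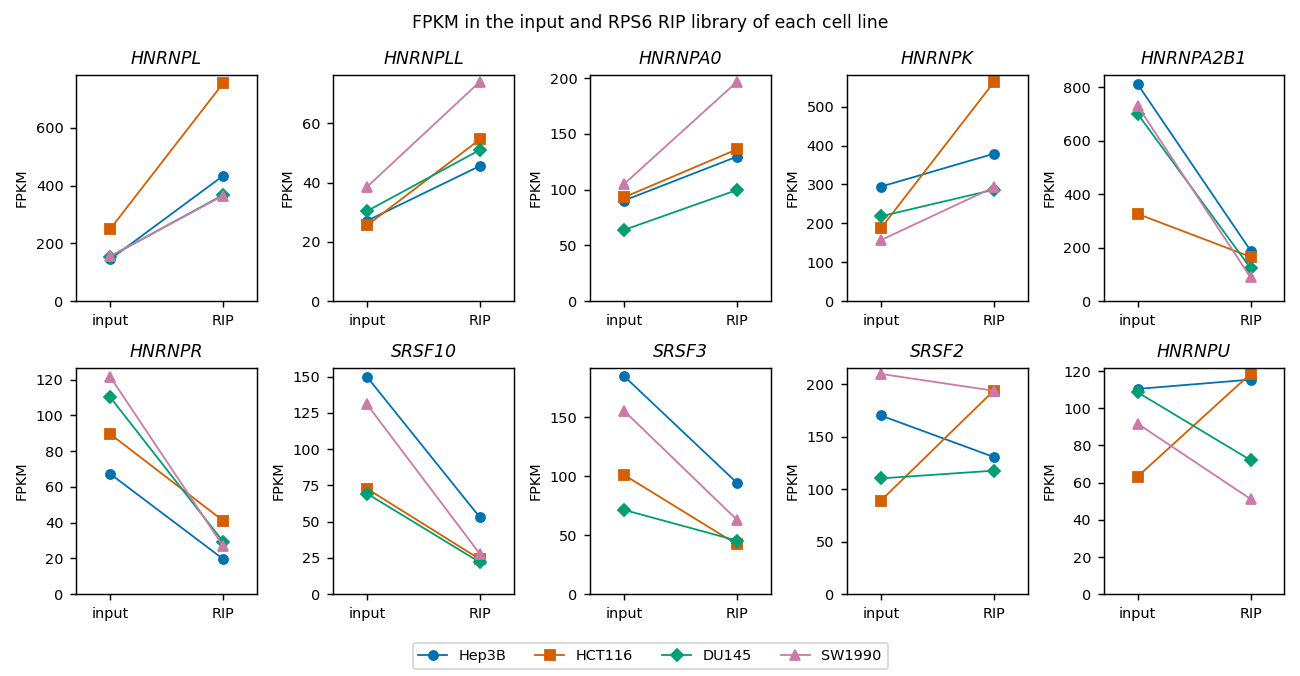
FPKM (y axis, from 0) in the input and the RPS6 RIP library of each cell line (lines join the pair of a cell line) for 10 of the genes. HNRNPL and HNRNPLL rise in every line, HNRNPA2B1, HNRNPR, SRSF10 and SRSF3 drop in every line, and SRSF2 and HNRNPU go both ways.

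HNRNPU (SAF-A), a scaffold attachment protein that binds chromatin-associated RNA, read differently in counts and in FPKM. HNRNPU (ENSG00000153187) measured 110.4, 63.3, 109 and 91.7 FPKM in the inputs and 115, 119, 72.1 and 51.2 in the RIP libraries, so it was higher in RIP in Hep3B and HCT116 and lower in DU145 and SW1990. On the estimated counts HNRNPU was lower in RIP in Hep3B too (log2 ratio -0.87) and above input only in HCT116 (0.23). The counts gave a call of lower (log2 fold change -0.83 ± 0.27, adjusted p = 0.027). With limma on FPKM the estimate was -0.11 and not past the threshold. The call was also lost without DU145 and without SW1990. The counts per FPKM, which follow the transcript length the authors' software used, shifted from input to RIP by -0.69, -0.55, -0.46 and -0.49 on the log2 scale. Only 0.292% of 13000 genes shifted down at least as far as the weakest of these, -0.46, in all 4 lines.

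HNRNPUL1 (ENSG00000105323), an HNRNPU relative with a part in DNA repair, measured 76.6, 66.2, 161 and 111 FPKM in the inputs and 135, 158, 185 and 203 in the RIP libraries. It was higher in RIP in each line and 1.61-fold higher by counts (log2 fold change 0.69 ± 0.23, adjusted p = 0.027). The HNRNPUL1 call was lost without Hep3B, without HCT116, without SW1990 and with scaling on protein-coding genes, and its locus holds 10 listed genes. HNRNPUL2 measured 11.1, 13.7, 13.7 and 13.3 FPKM in the inputs and 6.06, 35.9, 14.4 and 11.8 in the RIP libraries, with a log2 fold change of -0.09 ± 0.31 (adjusted p = 0.82) and a change of sign between settings. It lies in a locus with the read-through HNRNPUL2-BSCL2.

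Shifts of counts per FPKM were not special to HNRNPU in direction. Over the 36 genes, 12 shifted down in all 4 lines and 3 shifted up (SRSF2, HNRNPA0 and HNRNPL), while 25.3% of all genes with a value shifted down and 23.8% up. SRSF10 shifted by -0.30, -0.39, -0.48 and -0.25 and SRSF2 by 0.49, 0.07, 0.29 and 0.22 in the 4 lines. Because of these shifts, a fold change from counts and a ratio of FPKM can differ for 1 gene, and the part that transcript length plays was not tested.

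The cell lines did not follow the same pattern. HCT116 had the highest of the 4 ratios for 25 of the 36 genes, whereas it had the highest ratio for 25% of all genes. SW1990 had the lowest for 20 of 36, against 27.2% of all genes. At 2-fold or more below input on the FPKM + 1 scale were 11 of 36 genes in Hep3B (10.6% of all genes), 4 in HCT116 (13.4%), 9 in DU145 (13.6%) and 16 in SW1990 (16%). At 2-fold or more above input were 1 in Hep3B (19.1% of all genes), 7 in HCT116 (18.7%), 1 in DU145 (18.2%) and 1 in SW1990 (19.8%). Over all 4 lines, 16 of the 36 had a ratio below 0 in every line (23.6% of all genes) and 5 above 0 in every line (30.7%). These ratios are in FPKM, and agreement between lines depended on the scale. On the estimated counts, SRSF1, SRSF7, SRSF11, TRA2B, HNRNPH1 and HNRNPH2 were also below 0 in every line. HNRNPK, above 0 in every line in FPKM, was at -0.04 in Hep3B on counts. The shares of all genes on counts were not computed. With 1 pair per line, differences between lines were not tested.

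**Figure D4:**
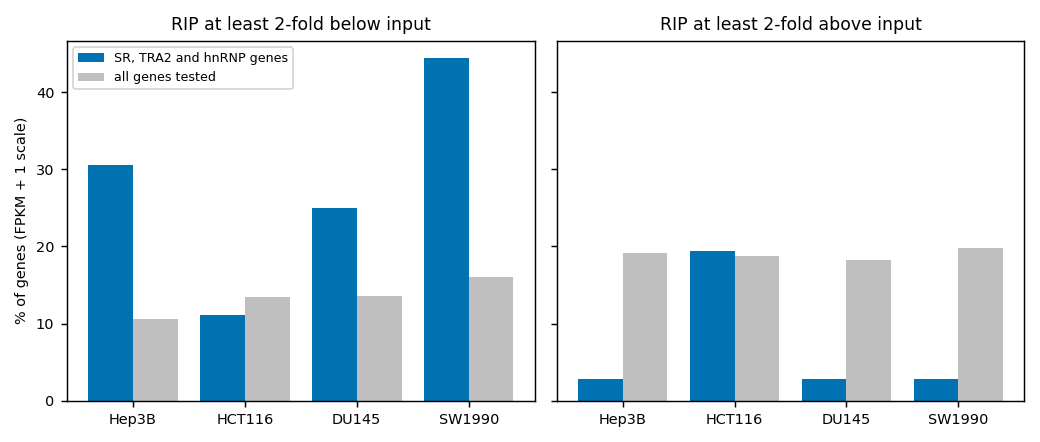
Share of genes (y axis, %) with RIP at least 2-fold below (left) or above (right) input on the FPKM + 1 scale in each cell line, for the 36 SR, TRA2 and hnRNP genes (blue) and all 19921 genes tested (grey). In SW1990, 16 of 36 genes were 2-fold below, and in HCT116 4 of 36.

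Input levels also differed between lines. SRSF8 (ENSG00000180771) varied most, by 5.91-fold between the highest and lowest input, leaving out SRSF12, which was listed at 0 in SW1990. HNRNPDL varied by 4.26-fold, HNRNPH3 by 3.83-fold and HNRNPAB by 3.54-fold, whereas HNRNPM varied by only 1.12-fold and HNRNPF by 1.16-fold. SW1990 inputs were the highest for this SRSF8 entry, HNRNPDL, HNRNPH3 and HNRNPAB. These levels come from 1 input per line and from tables normalized separately, so no test was possible.

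The rest of the splicing machinery was read beside these genes through lists of genes by role. The shares to set beside their counts are 26.1% lower and 32.3% higher with a median of 0.13 over protein-coding symbols, and 27.3% lower and 45.8% higher with a median of 0.39 over the deeply counted ones. The SR protein kinases, which phosphorylate the SR tail, had 5 of 9 lower and 2 higher, with CLK1 at -1.37 and CLK4 at -1.16 (log2 fold change) and CLK3 at 1.35. SRPK3 at 1.29 was not past the threshold, and its level was at most 0.61 FPKM in any library. The SR-related and speckle proteins, which carry SR-like tails but are not SR factors by name, had 14 of 22 lower and 4 higher, with a median of -1.14, SREK1IP1 at -3.04, RSRC1 at -2.86, SRRM2 at 1.0 and SCAF1 at 2.68. Of 12 hnRNP proteins with other gene names that were tested, 5 were lower and 5 higher, with SYNCRIP at -1.96, PTBP3 at -1.58, KHSRP at 1.51 and RALY at 1.66.

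Of 35 core spliceosome mRNAs, 14 were lower and 14 higher, with a median of 0.40, close to the 0.39 of the deeply counted genes. The Sm protein mRNAs SNRPF (-3.76) and SNRPD1 (-3.08) were lowest, and EFTUD2 (2.83) and PRPF8 (3.62), which encode large U5 proteins, were highest. Among 6 genes of SR protein import and dephosphorylation, 3 were higher and 2 lower, with PPP1CC at -1.19, PPP1CB at -1.01, TNPO2 at 1.20 and TNPO3, the importin of SR proteins, at 1.57. Of 4 nuclear-retained RNAs tested, 3 were lower, with MALAT1 at -3.04, NEAT1 at -2.93 and TUG1 at -1.64, while KCNQ1OT1 at -0.09 was not past the threshold (adjusted p = 0.81). Their part in the shift of the splicing factor mRNAs was not tested.

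**Figure D5:**
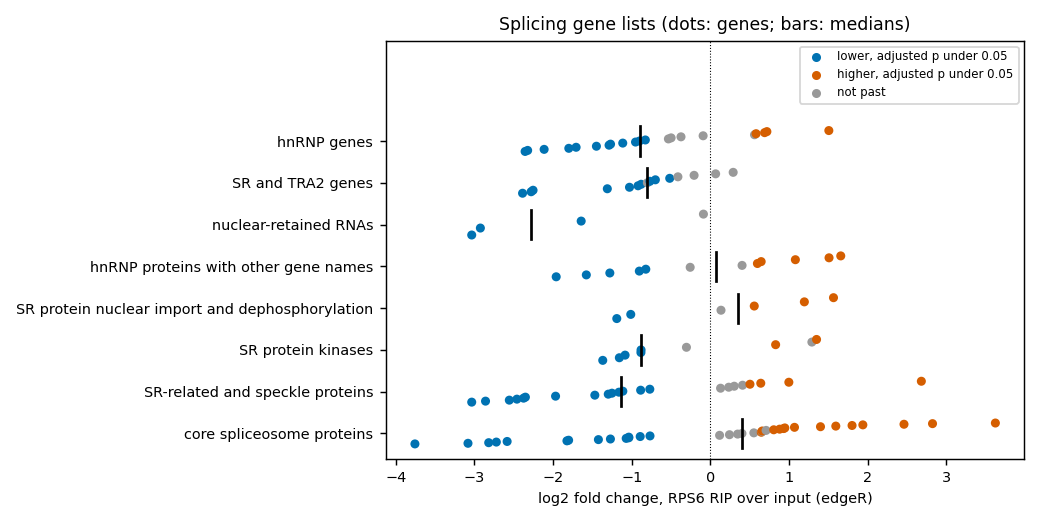
log2 fold change of RPS6 RIP over input (x axis, edgeR) for each gene of 6 splicing-related lists and for the SR with TRA2 genes and the hnRNP genes (dots, coloured by call), with the median of each list as a black bar. The SR-related list lies furthest left among the protein lists, at a median of -1.14.

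Fold changes differed with transcript length and level over all genes. With all genes in 5 equal bins of counts per FPKM, the median log2 fold change went from -0.75 in the bin of the shortest to 0.65 in that of the longest, and the bins held 0, 14, 13, 6 and 3 of the 36 genes from short to long. In 5 equal bins of mean FPKM it went from -0.37 to 0.33, and 29 of the 36 lay in the highest bin. The part of length and level in the shift was not tested.

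The start features of the opening were set beside the fold changes of all protein-coding genes with a RefSeq start. The 142 tested genes with GCCATTT in their first 30 bases had a median log2 fold change of -0.41 with 40.1% lower and 23.2% higher, and the others a median of 0.10 with 27% lower and 32.4% higher. The genes the run was picked from are among the 142. Of these, SRSF1, SRSF3, HNRNPD and HNRNPR were lower in RIP, and HNRNPC and HNRNPM were not past the threshold. The 789 genes with a pyrimidine start had a median of 0.05 against 0.09 without. HNRNPA0 and SRSF9, both with such a start, went in opposite directions. A match of letters is a description and not a site.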

How the data were processed

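RPS6 RIP and input libraries of 4 cell lines were compared. The authors aligned reads to hg19 with TopHat (TopHat2 2.0.9 and CASAVA 1.8 in the submitters' processing notes). The tool that assigned fragments and its annotation are not given in the sources used here, and the sequencer model differs between the study and the GEO record. The authors deposited FPKM per gene and library, in 2 tables normalized separately, and an estimated count per gene, which is scaled by 1 factor per library. Columns of the authors' own comparisons (fold changes, p-values and q-values) were not used.

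Estimated counts were rounded and tested with edgeR 4.0.16 (R 4.3.3) by the quasi-likelihood test, using TMM factors, a block per cell line, a minimum mean of 10 counts, and Benjamini-Hochberg adjustment over all 19921 genes (threshold 0.05). Cell lines pair the libraries by design. A RIP library's deviations from its group mean correlated with its own input at r of 0.839 to 0.886 over 19921 genes, and with any other input at -0.04 or less. Subtracting the group mean by itself pushes the correlations with the other inputs below 0, so those values say little about the pairing. Genes are not independent replicates. Ratios within a line used log2(FPKM + 1). Fragments were recovered from the common step of the estimated counts, and 92.3% to 93.9% of a library's values came out whole within 0.02. The test was also run on simulated counts in which few genes changed, each alike in all lines. That run does not cover data in which many genes change or the lines differ.

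The genes, lists and rules were chosen with earlier results of these data known. Genes named by rule were the 10 highest and 10 lowest called members with 1 direction in all 4 lines, the 5 most abundant, SRSF1, SRSF2, SRSF3, HNRNPA1, HNRNPA2B1, HNRNPC and HNRNPU, and any member under the minimum. All other members were added for completeness, and each list of other genes is shown by its 2 highest and 2 lowest. Protein-coding symbols and start sequences came from RefSeq (GRCh38.p14). The alternatives were a fit without the block, DESeq2 1.42.0, other minimums on counts, TMM factors from protein-coding genes, limma 3.58.1 on log2 FPKM with a pseudocount of 1 or 0.1, the recovered fragments as counts, and leaving out each line in turn. Adding pseudogene counts to the parent gene was chosen after seeing the data. Python 3.11.15 with pandas 2.3.3, NumPy 2.4.6 and matplotlib 3.10.9 was used for the rest.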

Additional observations from a re-analysis of the deposited data

Results flagged for a closer look

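In 10 of 108 groups of 4 values examined, 1 library or line lay far from the other 3 by Dixon's 95% criterion, and chance alone marks about 1 in 20 groups. HCT116 was the line that stood apart for the RIP level of HNRNPA1 (gap 0.859 of the range), HNRNPD (0.87) and HNRNPDL (0.857), for the input level of HNRNPA2B1 (0.839) and HNRNPL (0.872), and for the ratio of SRSF6 (0.885). Hep3B stood apart for the RIP level of SRSF12 (0.842) and HNRNPH3 (0.856) and for the input level of HNRNPUL2 (0.834). DU145 stood apart for the RIP level of SRSF8 (ENSG00000180771, 0.836). All levels were on the log2(FPKM + 1) scale.

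For 5 entries, the log2 ratio of RIP to input on the FPKM + 1 scale pointed in opposite directions in different lines by at least 1.5-fold each way. The difference was not tested, and the share of all genes that did so was not computed. HNRNPU had 0.89 in HCT116 and -0.83 in SW1990. HNRNPM had 1.09 in HCT116 and -1.01 in SW1990. HNRNPUL2 had 1.33 in HCT116 and -0.78 in Hep3B. TRA2A had 0.68 in HCT116 and -1.46 in Hep3B. SRSF8 (ENSG00000180771) had 0.67 in Hep3B and -1.52 in SW1990. On the estimated counts, only HNRNPUL2 of these 5 stayed at least 1.5-fold each way, with 1.16 in HCT116 and -1.05 in Hep3B. For the others, the log2 ratio above 0 was smaller on counts: 0.23 for HNRNPU, 0.48 for HNRNPM and 0.07 for TRA2A in HCT116, and 0.53 for SRSF8 in Hep3B.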

How the results depend on the processing

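Without the replicate block (the pairing by cell line), edgeR called 0 of the 36 genes higher and 6 lower, against 4 and 22 with it, and 2 were higher and 16 lower at an unadjusted p under 0.05. With TMM scaling on protein-coding genes, 2 were higher and 27 lower, and the median of all genes shifted from -0.05 to -0.25. With limma at either pseudocount, 5 were higher and 16 lower. Leaving out a cell line gave 2 to 3 genes higher and 17 (without DU145) to 22 lower. The median log2 fold change of all genes was 0.0017 without the block and 0.13 and 0.14 with limma at a pseudocount of 1 and 0.1. The shares of all genes called under the alternatives were not computed, so these counts have no background beside them. Of the 10 genes not past the threshold, HNRNPC, HNRNPF, HNRNPK, HNRNPM, SRSF11 and SRSF8 (ENSG00000180771) passed it under at least 1 alternative, in 14 of the results recomputed. The median of the SR and TRA2 genes ranged from -1.0 to -0.59 and that of the hnRNP genes from -1.16 to -0.50 over all alternatives. Of the 26 called genes, 18 kept the call under every alternative that retained the block and 6 also without it. Directions turned only for genes not past the threshold: HNRNPUL2 (0.22 without the block, 0.11 and 0.10 with limma at a pseudocount of 1 and 0.1, and -0.49 to 0.14 leaving out a line), SRSF11 (0.045 and 0.046 with limma), SRSF7 (0.0042 and 0.0044 with limma) and SRSF8 (ENSG00000271885, -0.13 with scaling on protein-coding genes and -0.075 to 0.20 leaving out a line). The cause was not tested. Depth limits SRSF12 and HNRNPCL1, and 1 library per arm and line leaves differences between lines without a test.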
